A study of Homo sapiens with 44 samples.

Results

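Transcript levels of 10 genes of the stathmin family and the neuronal microtubule cytoskeleton were followed in IMR5/75 cells: STMN1, STMN2, STMN3, STMN4, DCX, MAP1B, MAP2, MAPT, GAP43 and TUBB3. They were taken by name from the 23367 gene rows of the count table, and 9 of the 10 were among the 14534 genes that passed the filter on low counts. IMR5/75 is a human neuroblastoma line with amplified MYCN, and all libraries came from this line carrying a tetracycline-inducible shRNA to MYCN. Thymidine held the cells at the G1/S transition over 18 h, and harvests followed at 0, 3, 6, 8, 10, 12, 14, 16, 18, 20 and 22 h after washout, either with tetracycline (Tet plus, 22 libraries) or without it (Tet minus, 22 libraries). Every time in either arm has 2 libraries, which the series' design calls biological replicates. A control hairpin, or the drug on cells lacking the hairpin, is not among the groups, so that effects of tetracycline, of other hairpin targets and of lower MYCN cannot be told apart.

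Microtubules are hollow polymers of alpha and beta tubulin that grow and shrink at their ends. Stathmins bind free tubulin dimers and make microtubules shrink, and kinases switch this activity off by phosphorylating them. Doublecortin (DCX), MAP1B, MAP2 and tau (MAPT) bind along the polymer and stabilise it in migrating neurons, axons and dendrites. GAP43 is a membrane-bound phosphoprotein of growth cones, and TUBB3 encodes the beta tubulin used as a marker of neurons and of neuroblastoma cells.

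Gene counts per library ranged from 10906524 to 25313546, with 10906524 to 19795156 in the 8 Tet plus libraries of 16 to 22 h. Those 8 libraries carry other lane numbers and another form of title than the 8 Tet minus libraries of the same times. Their titles do not name the arm, and in those of replicate 2 the leading number is not the hour. Arm and time of every library were taken from the sample descriptions. The other lanes and titles are taken below to mean a separate sequencing run, and at 16 to 22 h arm and run cannot be told apart. Spike-in transcripts (ERCC) made up 0.0543% to 0.376% of the counts in these 8 Tet plus libraries, against 1.13% to 3.43% in the 8 of Tet minus. At 0 to 14 h MYCN had 938 to 1213 CPM (counts per 1000000 of the scaled library size, median 1002) in Tet plus and 970 to 1479 CPM (median 1228) in Tet minus libraries. It was lower in Tet plus cells by edgeR's test (log2 fold change -0.27, SE 0.0460, adjusted p = 2.71e-05). By that test, single times of this span ran from -0.08 at 0 h (adjusted p = 0.858) to -0.45 at 12 h (adjusted p = 0.0343). MYCN at 0 h had 1012 and 938 CPM in Tet plus, overlapping with 1091 and 970 CPM in Tet minus libraries. Over 16 to 22 h it averaged -0.26 (adjusted p = 0.000787), with -0.59 at 16 h (adjusted p = 0.000826). By 22 h the arms overlapped, with 1048 and 1242 CPM in Tet plus and 1091 and 1244 CPM in Tet minus libraries. The noradrenergic markers of neuroblastoma were present, 10 of 11 passing the filter (HAND2 with a median of 393 CPM), while TH had 0 to 4 counts per library. Of the 11 markers of mesenchymal or Schwann-like cells 8 passed, led by VIM with a median of 690 CPM, while SOX10, S100B and COL1A2 had at most 2 counts in any library.

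By GENCODE v29 (GRCh38), STMN1 lies on chromosome 1, STMN2 and STMN4 on 8, STMN3 on 20, DCX on X, MAP1B on 5, MAP2 on 2, MAPT on 17, GAP43 on 3 and TUBB3 on 16. This annotation is of a later build than the hg19 of the counts and was used for lengths and neighbours. Per kilobase of exon, STMN1 and TUBB3 were the most abundant of the 10 transcripts in both arms. In Tet plus libraries of 0 to 14 h, STMN1 had 442 ± 44.2 and TUBB3 182 ± 42.1 CPM per kilobase (SD, n = 14 libraries over 7 times, so that SDs hold change over time as well as replicate spread). MAP1B followed with 59.4 ± 12.7, STMN3 with 52.0 ± 12.0, MAP2 with 9.84 ± 1.27, DCX with 7.25 ± 2.17, GAP43 with 6.24 ± 1.37, MAPT with 3.93 ± 1.59 and STMN4 with 3.71 ± 0.809 CPM per kilobase. In Tet minus libraries STMN1 had 383 ± 47.2, TUBB3 156 ± 33.5, STMN3 49.0 ± 8.97, MAP1B 43.2 ± 5.52, MAP2 8.01 ± 0.991, GAP43 4.88 ± 0.960, DCX 3.67 ± 1.16, MAPT 2.76 ± 1.19 and STMN4 1.79 ± 0.456 CPM per kilobase. STMN1 and TUBB3 each overlapped with no other of the 10 genes across the libraries of an arm, whereas STMN3 and MAP1B overlapped with each other, and from MAP2 down each gene overlapped with the next in the order. STMN3 and MAP1B, and DCX and GAP43, therefore stood in opposite order in the 2 arms without a level difference beyond their spread. With the longest protein-coding transcript as the length, STMN3 came before MAP1B in both arms, and STMN4 before MAPT in Tet plus libraries.

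**Figure D1:**
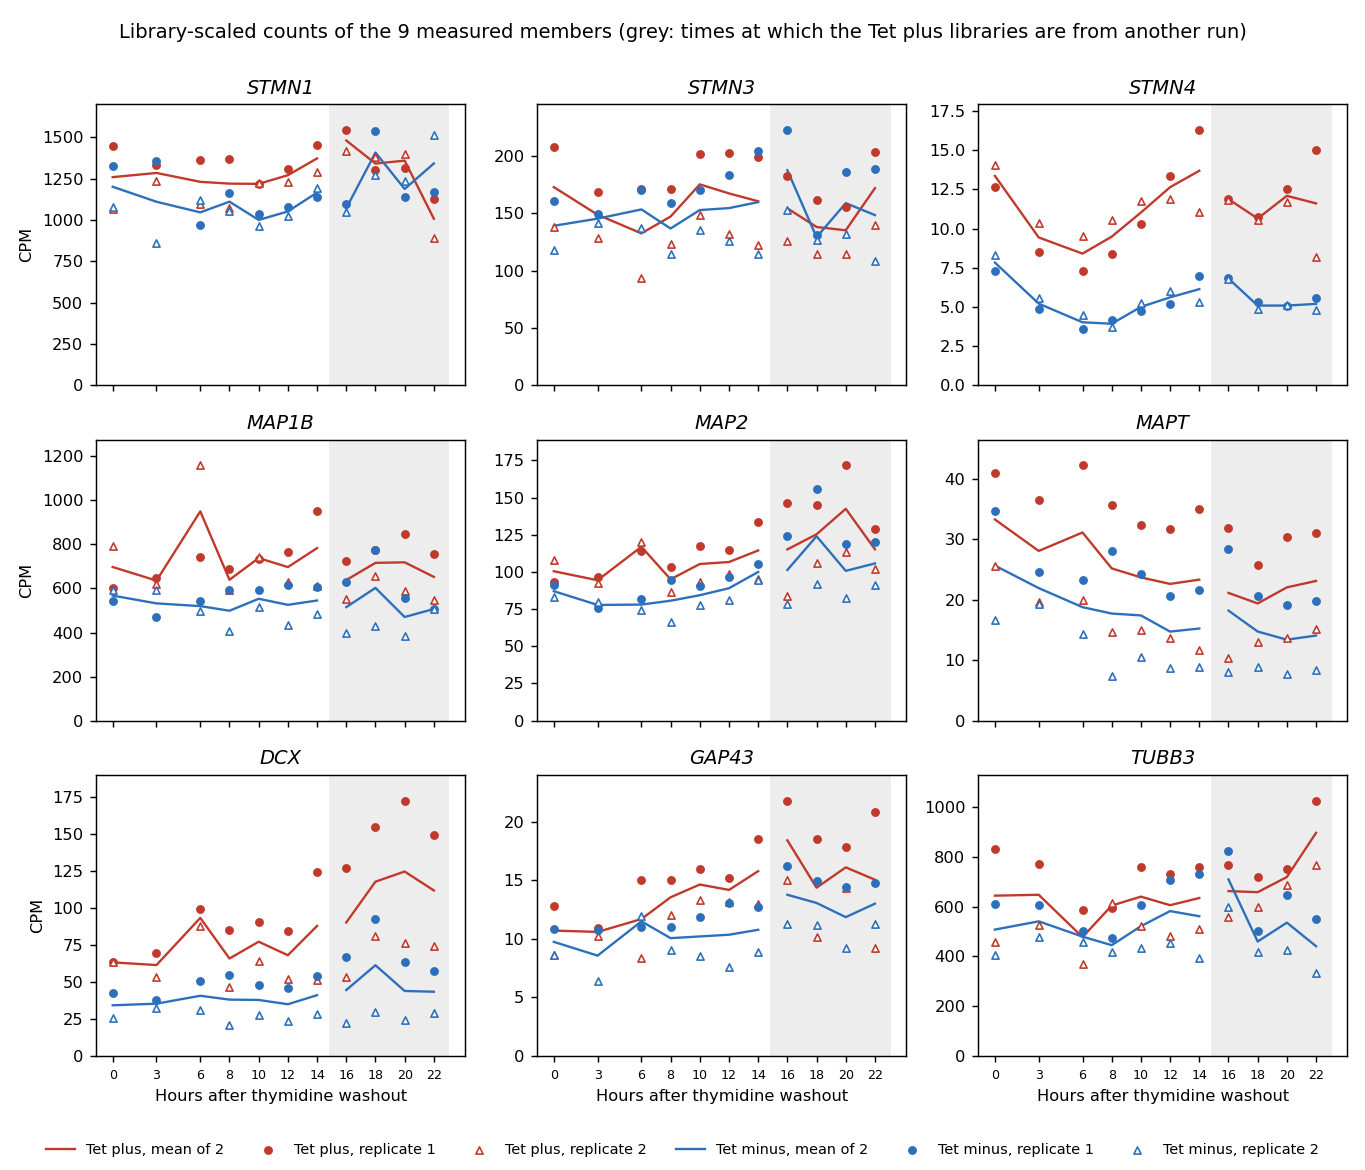
CPM of the 9 measured genes in each library (vertical axis of each panel, linear from 0) against hours after thymidine washout, Tet plus in red and Tet minus in blue, filled circles for replicate 1, open triangles for replicate 2 and lines for the mean of both. STMN4 libraries of the arms are apart at all 11 times, MAPT libraries separate by replicate number in both arms, and grey marks the times at which arm and run cannot be told apart.

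The first question was whether these transcripts differed between the arms while the arms shared lanes, from 0 to 14 h. STMN4, DCX, MAP1B, GAP43, MAP2 and STMN1 were higher in Tet plus cells, 6 of the 9 measured genes, against 20.1% of all genes tested that were higher and 21.3% that were lower (adjusted p under 0.05, quasi-likelihood test of edgeR, Benjamini-Hochberg adjustment over all genes, used throughout). The median log2 fold change of the 9 was 0.35, against 0.01 over all genes tested. Replicate numbers paired the arms, and with replicate number as a term in the fit (the replicate block) MAPT and TUBB3 also passed, which made 8 of 9 against 26.5% of all genes higher. Scaled by ERCC transcripts, with which the median log2 fold change of all genes was 0.13, 0 of the 9 genes passed (44 genes were called higher in all), and STMN4 had 1.18 (adjusted p = 0.141). In bulk RNA, a larger share of cells expressing a gene and more RNA per cell cannot be told apart. Noradrenergic markers moved in the same direction: 5 of 10 were higher, and their summed level was 901 to 1489 CPM in Tet plus and 717 to 1207 CPM in Tet minus libraries. The mesenchymal and Schwann-like markers summed to 693 to 1567 CPM in Tet plus and 714 to 1384 CPM in Tet minus libraries, with 2 of 8 higher and 1 lower. With the replicate block 8 of 10 noradrenergic markers were higher, and 5 of the 8 mesenchymal and Schwann-like markers were higher and 3 lower. The part of either list in the differences was not tested.

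Among the stathmins, STMN4, a family member largely restricted to neurons, differed most. It had 7.28 to 16.3 CPM (median 10.8) in Tet plus and 3.58 to 8.34 CPM (median 5.23) in Tet minus libraries over 0 to 14 h, on 138 to 318 counts in Tet plus and 48 to 159 counts in Tet minus libraries. Both Tet plus libraries lay above both Tet minus libraries at each of the 7 times. The log2 fold change was 1.06 (SE 0.0827, adjusted p = 1.12e-10), a 2.08-fold difference, and 0.949% of the genes tested had a larger one. Taken within replicates, it was 1.03 among libraries of replicate 1 and 1.05 among those of replicate 2.

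STMN1, the ubiquitous stathmin (oncoprotein 18) that is phosphorylated as cells enter mitosis, had a smaller difference. It had 1069 to 1454 CPM (median 1264) in Tet plus and 861 to 1360 CPM (median 1078) in Tet minus libraries. The arms were apart at 10, 12 and 14 h and overlapped at 0, 3, 6 and 8 h. At 10 h both Tet plus libraries had 1215 and 1222 CPM, against 1035 and 966 CPM in Tet minus libraries. Its log2 fold change at 0 to 14 h was 0.21 (SE 0.0669, adjusted p = 0.0148), and 24.6% of the genes tested had a larger one.

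STMN3, a membrane-anchored neuronal stathmin also known as SCLIP, overlapped between the arms at each of the 7 times. It had 93.7 to 208 CPM (median 159) in Tet plus and 115 to 205 CPM (median 145) in Tet minus libraries, with a log2 fold change of 0.08 with SE 0.132 (adjusted p = 0.662, and 0.288 with the replicate block). STMN2, the growth-associated stathmin also known as SCG10, did not pass the filter. It had 4 counts over all 14 Tet plus and 4 over all 14 Tet minus libraries of 0 to 14 h, and was at 0 in 10 Tet plus and 11 Tet minus libraries. At 16 to 22 h it had 7 counts over 8 Tet plus and 3 over 8 Tet minus libraries, at most 3 in any one. Over all 44 libraries, 3 counts amount to 0.120 to 0.267 CPM. STMN2 was therefore at or below this level in every library of both arms, and a difference between the arms below it could not be seen.

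The promoter windows of RefSeq (GRCh38.p14), which run from 250 bases before to 50 after a transcription start, were searched for CACGTG, the E-box that MYC proteins with MAX are known to bind, in its 6 letters, which read the same on both strands. Windows of STMN2, STMN4 and MAPT were not used here. Of the other 7 genes STMN1 alone held the motif, in 1 of the 15 windows of these genes, against 7.26% of 35116 windows that held it and 0.664% that held 2 or more. The 2 stathmins with a window, STMN1 with a called and STMN3 with no called arm difference at 0 to 14 h, are shown because they differ in this motif, each over the same stretch from 130 to 40 bases before the start on the minus strand, with CACGTG in capitals. The stretch of STMN1 is chr1:25906459-25906549 and that of STMN3 is chr20:63652806-63652896.
STMN1: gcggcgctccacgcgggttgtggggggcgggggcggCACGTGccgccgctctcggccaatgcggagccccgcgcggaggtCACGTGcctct
STMN3: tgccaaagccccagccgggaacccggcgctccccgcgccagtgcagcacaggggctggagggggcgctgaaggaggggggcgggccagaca
The matches in STMN1 began 94 and 50 bases before the start. Without the replicate block DCX, MAP1B, MAP2 and GAP43 were also called higher at 0 to 14 h, and their windows held no match. TUBB3 and STMN3, not called there, held none either. A match describes these letters only, and no binding was measured in these libraries.

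Of the genes for proteins that bind along microtubules, DCX, the doublecortin of migrating neurons, differed most. It had 46.4 to 124 CPM (median 66.8) in Tet plus and 21.1 to 55.1 CPM (median 35.3) in Tet minus libraries over 0 to 14 h. The arms were apart at 5 of 7 times and overlapped at 8 and 14 h, and all 14 same-numbered pairs had the Tet plus library higher. The log2 fold change was 0.97 (SE 0.240, adjusted p = 0.00197), a 1.96-fold difference, and its adjusted p was 2.42e-09 with the replicate block. It was 0.86 among libraries of replicate 1 and 1.12 among those of replicate 2.

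MAP1B, an early axonal microtubule-associated protein that also binds actin, had 592 to 1159 CPM (median 711) in Tet plus and 405 to 616 CPM (median 542) in Tet minus libraries. The arms were apart at 6 of 7 times, the exception being 8 h, and the log2 fold change was 0.45 (SE 0.107, adjusted p = 0.00147). The highest library was replicate 2 of Tet plus at 6 h. At that time Tet plus libraries had 741 and 1159 CPM, against 544 and 496 CPM in Tet minus libraries.

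MAP2, the dendritic member of the same functional class, had 86.6 to 134 CPM (median 101) in Tet plus and 66.6 to 105 CPM (median 82.4) in Tet minus libraries. The arms were apart at 5 of 7 times and overlapped at 8 and 14 h. Over the 7 times the log2 fold change was 0.30 (SE 0.103, adjusted p = 0.0214), and the call was lost without replicate 1 of Tet plus at 14 h (log2 fold change 0.26, adjusted p = 0.0511).

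MAPT encodes tau, the axonal microtubule-associated protein. It had 11.6 to 42.3 CPM (median 28.6) in Tet plus and 7.43 to 34.7 CPM (median 20.0) in Tet minus libraries, and the arms overlapped at each of the 7 times. Within each replicate number, however, the Tet plus library was higher in 14 of 14 pairs. Averaged over times, the log2 fold change was 0.52 (SE 0.294, adjusted p = 0.161), and with the replicate block it was 0.52 (SE 0.0855, adjusted p = 8.19e-06). Counts of MAPT may include reads of MAPT-IT1 and STH, which overlap it on the same strand and had 1 to 32 and 0 to 4 counts per library, and of the antisense MAPT-AS1 with 0 to 3.

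GAP43 had 8.35 to 18.6 CPM (median 13.1) in Tet plus and 6.39 to 13.1 CPM (median 10.8) in Tet minus libraries over 0 to 14 h. The arms were apart at 8, 10, 12 and 14 h and overlapped at 0, 3 and 6 h. The log2 fold change was 0.35 (SE 0.139, adjusted p = 0.0476, and 0.000182 with the replicate block). Without the block the call was close to the threshold and was lost on leaving out any of 17 of the 28 libraries of 0 to 14 h. These were replicate 1 of Tet plus at 0, 3, 6, 8, 10, 12 and 14 h, replicate 2 of Tet plus at 3 and 12 h, replicate 2 of Tet minus at each of the 7 times, and replicate 1 of Tet minus at 6 h. The log2 fold change without a library was 0.28 to 0.41, and the adjusted p was at most 0.110.

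TUBB3 had 369 to 831 CPM (median 591) in Tet plus and 394 to 730 CPM (median 474) in Tet minus libraries. The arms were apart at 8 h, when Tet plus libraries had 595 and 614 CPM against 472 and 418 CPM in Tet minus libraries, and overlapped at the other times. Its fold change on the log2 scale was 0.22 (SE 0.129, adjusted p = 0.172, and 0.00288 with the replicate block). Tubulin genes share sequence, so the counts of TUBB3 and of other single tubulins are uncertain to that extent.

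**Figure D2:**
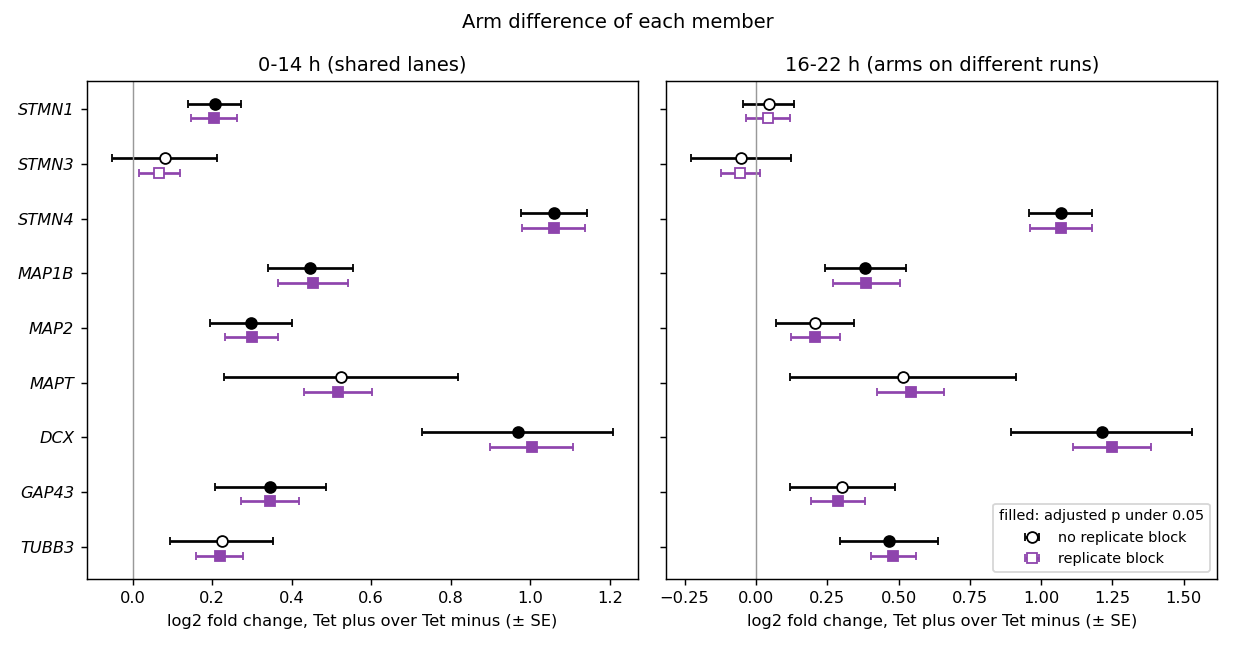
Log2 fold change of Tet plus over Tet minus with its SE (horizontal axis) for the 9 measured genes, averaged over 0 to 14 h (left) and 16 to 22 h (right), as fitted without (black circles) and with (purple squares) the replicate block, filled where the adjusted p is under 0.05. STMN4 and DCX lie farthest to the right in both panels, and the SE of MAPT at 0 to 14 h is 0.294 without and 0.0855 with the block.

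All 14 same-numbered pairs had the Tet plus library higher for STMN4, DCX, MAP1B, MAP2 and MAPT, which held for 8.26% of all genes tested. TUBB3 was higher in 13 of 14 pairs, GAP43 in 12, STMN1 in 11 and STMN3 in 11, and for these numbers the share of all genes was not counted. Both libraries of each arm were apart, with Tet plus higher, at 4 or more of the 7 times for STMN4, MAP1B, MAP2, DCX and GAP43, against 16% of all genes tested. Averaged over 0, 3 and 6 h alone, when all libraries of a replicate shared a lane, STMN4 (log2 fold change 0.89, adjusted p = 1.28e-05) and MAP1B (0.47, adjusted p = 0.0430) were higher, against 8.33% of all genes. DCX had 0.96 (adjusted p = 0.0674). Over 8, 10 and 12 h, also on shared lanes, STMN4 was higher (1.19, adjusted p = 1.35e-07), against 9.58% of all genes, and DCX had 0.93 (adjusted p = 0.0719). With the replicate block 5 and 8 of the 9 genes were higher in these averages, against 15.8% and 16.9% of all genes. Both averages were chosen after seeing the data.

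Taken one time at a time, STMN4 was the only one of the 9 genes that passed edgeR's test without the block before 16 h, and it did so at 6 of 7 times. DESeq2's test called STMN4 at 0 h too, at 0.78 on the log2 scale (adjusted p = 0.0313), and MAP1B at 6 h, at 0.87 (adjusted p = 0.0248). MAP1B at 6 h passed by edgeR on the 28 libraries of 0 to 14 h alone as well (0.87, adjusted p = 0.0437). Its log2 fold change at 6 h was 1.16 without replicate 1 of Tet plus and 0.49 without replicate 2 of Tet plus, so its size depended on single libraries. With ERCC scaling 0 of the 9 passed at any of the 7 times. The share of all genes tested that were higher was 0.564% at 0 h, 1.02% at 3 h, 2.65% at 6 h, 1.38% at 8 h, 1.36% at 10 h, 1.62% at 12 h and 2.04% at 14 h. At 0 h STMN4 had 12.7 and 14.0 CPM in Tet plus libraries, against 7.32 and 8.34 CPM in Tet minus libraries. That log2 fold change of 0.77 (SE 0.214) had an adjusted p of 0.0684, and of 0.0163 with the replicate block. At 3 h STMN4 passed at 0.86 (adjusted p = 0.0289). At 8 h it had 8.40 and 10.6 CPM in Tet plus libraries, against 4.15 and 3.71 CPM in Tet minus libraries, its widest log2 fold change of the 7 times (1.27, SE 0.221, adjusted p = 0.00113). From 6 to 14 h its log2 fold change stayed between 1.05 and 1.27. Leaving out 1 library ended the call at 3 h (without replicate 2 of Tet plus or either Tet minus library, log2 fold change 0.71 to 0.95, adjusted p up to 0.423) and at 6 h (without replicate 2 of Tet plus or replicate 1 of Tet minus, 0.83 and 0.90, adjusted p = 0.181 and 0.0725). It also ended it at 10 h (without replicate 1 of Tet minus, 1.07, adjusted p = 0.0610) and 14 h (without replicate 1 of Tet plus, 0.86, adjusted p = 0.0854).

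With the replicate block, the 9 genes together passed 17 times at single times from 0 to 14 h in place of 6, while the share of all genes that were higher was 3.93% at 0 h, 4.25% at 3 h, 7.89% at 6 h, 5.99% at 8 h, 5.4% at 10 h, 6.14% at 12 h and 7.98% at 14 h. DCX then differed at every time but 3 h, with log2 fold changes of 0.85 to 1.28 where it passed. At 6 h 5 of the 9 were higher with the block: STMN4, DCX (block log2 fold change 1.28, adjusted p = 0.00212), MAP1B (0.90, adjusted p = 0.00816), MAP2 (0.59, adjusted p = 0.0182) and MAPT (0.66, adjusted p = 0.0417). GAP43 passed at 14 h alone (0.55, adjusted p = 0.0427), when Tet plus libraries had 18.6 and 13.0 CPM against 12.7 and 8.84 CPM in Tet minus libraries.

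A test of whether the arm difference changed among the 7 times called 0 of the 9 genes, and 0 at an unadjusted p under 0.05. DESeq2 also called 0 of the 9 and the replicate block 0, while edgeR called 2 genes in all (0.0138%), or 0.151% of all genes with the block. The test does not show that the differences were constant.

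**Figure D3:**
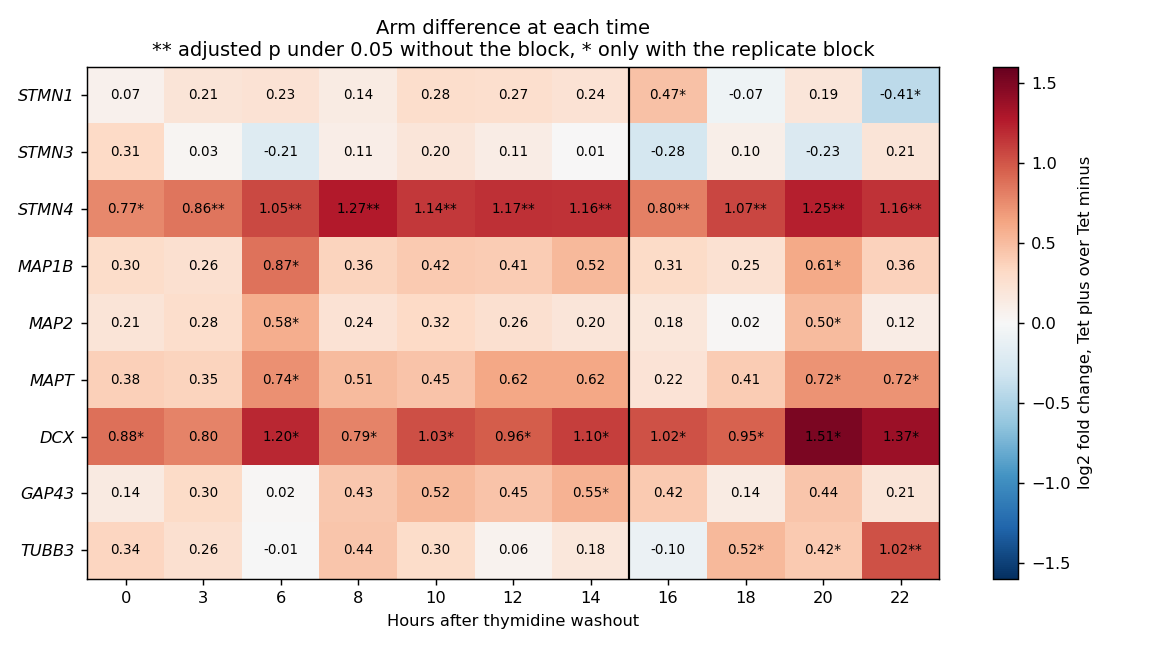
Log2 fold change of Tet plus over Tet minus (colour and printed value) for the 9 measured genes (rows) at each hour after thymidine washout (columns), with 2 asterisks where the adjusted p was under 0.05 without the replicate block and 1 where it was so with the block only. The row of STMN4 has its lowest value at 0 h (0.77) and its highest at 8 h (1.27), and the row of STMN1 holds 0.47 at 16 h and -0.41 at 22 h (4.10 with ERCC scaling).

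At 16 to 22 h, where arm and run cannot be told apart, STMN4, DCX, TUBB3 and MAP1B were higher in Tet plus cells, 4 of 9 genes, against 26.3% of all genes tested that were higher and 26.8% that were lower. With the replicate block MAPT, GAP43 and MAP2 joined them, 7 of 9 against 32.1% of all genes higher. Scaled by ERCC transcripts the median of all genes was 4.40 in place of 0.02 and all 9 genes were higher, so directions at these times are relative to the other genes. DCX had 53.3 to 173 CPM (median 104) in Tet plus and 22.5 to 92.8 CPM (median 43.8) in Tet minus libraries, a log2 fold change of 1.21 with SE 0.318 (adjusted p = 0.00227). The arms of DCX were apart at 20 and 22 h. STMN4 had 8.18 to 15.0 CPM (median 11.8) in Tet plus and 4.82 to 6.83 CPM (median 5.23) in Tet minus libraries. This gave a log2 fold change of 1.07 with SE 0.110 (adjusted p = 7.21e-09), with the arms apart at each of the 4 times. STMN4 and TUBB3 were apart, with Tet plus higher, at 3 or more of these 4 times, as were 23.1% of all genes tested. STMN4 passed at each of the 4 times singly (log2 fold change 0.80 to 1.25), when 12.9%, 7.53%, 10.2% and 12.1% of all genes were higher at 16, 18, 20 and 22 h. With the block DCX passed at each as well (1.04 to 1.53), when 19.4%, 14%, 17.8% and 20.2% of all genes were higher.

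TUBB3 had 558 to 1027 CPM (median 734) in Tet plus and 333 to 822 CPM (median 525) in Tet minus libraries over 16 to 22 h, a log2 fold change of 0.47 with SE 0.171 (adjusted p = 0.0238). At 16 h Tet plus libraries had 767 and 558 CPM against 822 and 597 CPM in Tet minus libraries, and the arms overlapped. At 22 h Tet plus libraries had 1027 and 767 CPM against 549 and 333 CPM in Tet minus libraries, and the arms were apart, as at 18 and 20 h. At 22 h TUBB3 passed on its own (log2 fold change 1.02, SE 0.345, adjusted p = 0.0272), but not without replicate 1 of Tet plus (0.80, adjusted p = 0.181) or replicate 2 of Tet minus (0.71, adjusted p = 0.283). A test of whether the arm difference changed among 16, 18, 20 and 22 h, chosen after seeing the data, gave TUBB3 an adjusted p of 0.574, and of 0.00902 with the replicate block. The average for 16 to 22 h lost its call without any of 7 of the 16 libraries: replicate 1 of Tet plus at 16, 18 or 22 h, or replicate 2 of Tet minus at any of the 4 times (log2 fold change 0.39 to 0.44, adjusted p at most 0.0715).

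MAP1B had 548 to 848 CPM (median 691) in Tet plus and 385 to 774 CPM (median 507) in Tet minus libraries over 16 to 22 h, a log2 fold change of 0.38 with SE 0.142 (adjusted p = 0.0252). That call was lost without any of 7 of the 16 libraries: replicate 1 of Tet plus at any of the 4 times, or replicate 2 of Tet minus at 16, 18 or 20 h (log2 fold change 0.29 to 0.35, adjusted p at most 0.0877). MAPT had a log2 fold change of 0.52 (adjusted p = 0.280, and 0.000215 with the block), GAP43 of 0.30 (adjusted p = 0.172, and 0.0106 with the block) and MAP2 of 0.21 (adjusted p = 0.205, and 0.0379 with the block). STMN3 overlapped between the arms at each of the 4 times, with a log2 fold change of -0.05 with SE 0.175 (adjusted p = 0.824), or 4.39 with ERCC scaling.

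STMN1 averaged to a log2 fold change of 0.04 at 16 to 22 h (SE 0.0884, adjusted p = 0.695), but its libraries were apart at 3 of the 4 times and not in 1 direction. The share of all genes apart in both directions was not counted. At 16 h Tet plus libraries had 1545 and 1417 CPM, against 1096 and 1046 CPM in Tet minus libraries (log2 fold change 0.47, SE 0.177, adjusted p = 0.0508, and 0.0176 with the block). It passed there without the block with DESeq2's size factors (0.47, adjusted p = 0.0430) and DESeq2's test (0.47, adjusted p = 0.0297). At 22 h Tet plus libraries had 1125 and 890 CPM, against 1169 and 1515 CPM in Tet minus libraries (log2 fold change -0.41, SE 0.177, adjusted p = 0.0818, and 0.0275 with the block, where 21% of all genes were lower, but 4.10 with ERCC scaling). At 22 h its log2 fold change without the block was -0.59 on leaving out replicate 1 of Tet minus and -0.21 on leaving out replicate 2 of Tet minus. The test for a change of the arm difference among these 4 times gave an adjusted p of 0.165 without and 0.0299 with the block. In that test 0 of the 9 genes passed without the block (1, STMN1, at an unadjusted p under 0.05, and 0 with DESeq2) and 2 with it, against 2.05% of all genes without and 11.3% with the block.

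The course within each arm was then compared over 0 to 14 h, along which lane numbers also change. STMN4 alone of the 9 genes changed over these times in Tet minus cells (adjusted p = 0.0184, against 14.5% of all genes tested), and with the block MAPT did too (adjusted p = 0.0161, 34.3% of all genes). In Tet plus cells 0 of the 9 genes passed and STMN4 alone had an unadjusted p under 0.05 (adjusted p = 0.0919, and 0.0298 with the block), against 10.4% of all genes without and 25.9% with the block. DESeq2's likelihood ratio test called STMN4 in Tet plus cells (adjusted p = 0.0439), and so did edgeR without replicate 2 of Tet plus at 14 h (adjusted p = 0.0458). The Tet minus call was lost without replicate 2 of Tet minus at 0 h (adjusted p = 0.104).

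STMN4 fell after release in Tet minus cells. It had 3.58 and 4.46 CPM at 6 h, against 7.32 and 8.34 CPM at 0 h on the same lanes (log2 fold change -0.95, SE 0.224, adjusted p = 0.0168), where 0.489% of all genes were lower. Without any 1 of these 4 libraries that call was lost (log2 fold change -1.13 to -0.81, adjusted p 0.0531 to 0.237), as it was with ERCC scaling (-0.78, adjusted p = 1). In Tet plus cells STMN4 had 7.28 and 9.52 CPM at 6 h, against 12.7 and 14.0 CPM at 0 h (log2 fold change -0.67, SE 0.214, adjusted p = 0.0977, and 0.0374 with the block, where 8.59% of all genes changed, but 0.23 with ERCC scaling). Its mean was lowest at 6 h in Tet plus cells (8.40 CPM) and at 8 h in Tet minus cells (3.93 CPM), and at 14 h it was 16.3 and 11.1 CPM in Tet plus and 6.95 and 5.33 CPM in Tet minus libraries. The change from 8 to 12 h on shared lanes did not pass in either arm (log2 fold change 0.41, adjusted p = 0.996 in Tet plus; 0.51, adjusted p = 0.605 in Tet minus).

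MAPT had its highest mean at 0 h in both arms, with 41.0 and 25.6 CPM in Tet plus and 34.7 and 16.6 CPM in Tet minus libraries. It was lowest at 12 h in both, with 31.7 and 13.6 CPM in Tet plus and 20.7 and 8.79 CPM in Tet minus libraries. Only the block fit called this course, and in Tet minus cells only. GAP43 had its highest mean of 0 to 14 h at 14 h in Tet plus cells (15.8 CPM) and at 6 h in Tet minus cells (11.5 CPM), and neither course passed (adjusted p = 0.855 and 1).

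Between 16 and 22 h, each arm on its own lanes, STMN1 changed in Tet plus and TUBB3 in Tet minus cells with the block, and neither passed edgeR's test without it. STMN1 in Tet plus cells had 1125 and 890 CPM at 22 h, against 1545 and 1417 CPM at 16 h (log2 fold change -0.56, SE 0.177, adjusted p = 0.0548, and 0.0129 with the block), and it passed without the block with DESeq2's size factors (-0.57, adjusted p = 0.0443) and DESeq2's test (-0.57, adjusted p = 0.0186). Leaving out 1 of these 4 libraries gave STMN1 a log2 fold change of -0.73 to -0.40 by edgeR without the block. TUBB3 in Tet minus cells had 549 and 333 CPM at 22 h, against 822 and 597 CPM at 16 h (log2 fold change -0.69, SE 0.343, adjusted p = 0.288, and 0.00617 with the block). With the block, 18.3% of all genes changed between these times in Tet plus and 12.3% in Tet minus cells.

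Replicates of a group differed more for some of these genes than the arms did. MAPT was higher in replicate 1 than in replicate 2 in 22 of 22 groups, by 2.26-fold on average (mean log2 difference 1.18, range 0.34 to 1.90). STMN3 also was higher in replicate 1 in 22 of 22 groups (1.41-fold), which held for 4.04% of all genes tested. DCX (1.85-fold), GAP43 (1.40-fold) and TUBB3 (1.38-fold) were higher in replicate 1 in 21 of 22 groups, and MAP2 (1.24-fold) in 19. MAP1B (1.17-fold) was higher in 17, STMN1 (1.09-fold) in 15 and STMN4 (1.01-fold) in 11. The share of all genes higher in replicate 1 was counted for 22 of 22 groups only. Replicate number and lane go together within each set of times, so the 2 cannot be told apart. Fits with the block and fits without it both treat the times as independent samples. For MAPT, STMN3, DCX, GAP43 and TUBB3 these values show a shared offset by replicate number. The block takes up 1 such offset per gene, which leaves 21 in place of 22 residual degrees of freedom. Its p-values therefore also count times of the same 2 replicate numbers as independent.

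**Figure D4:**
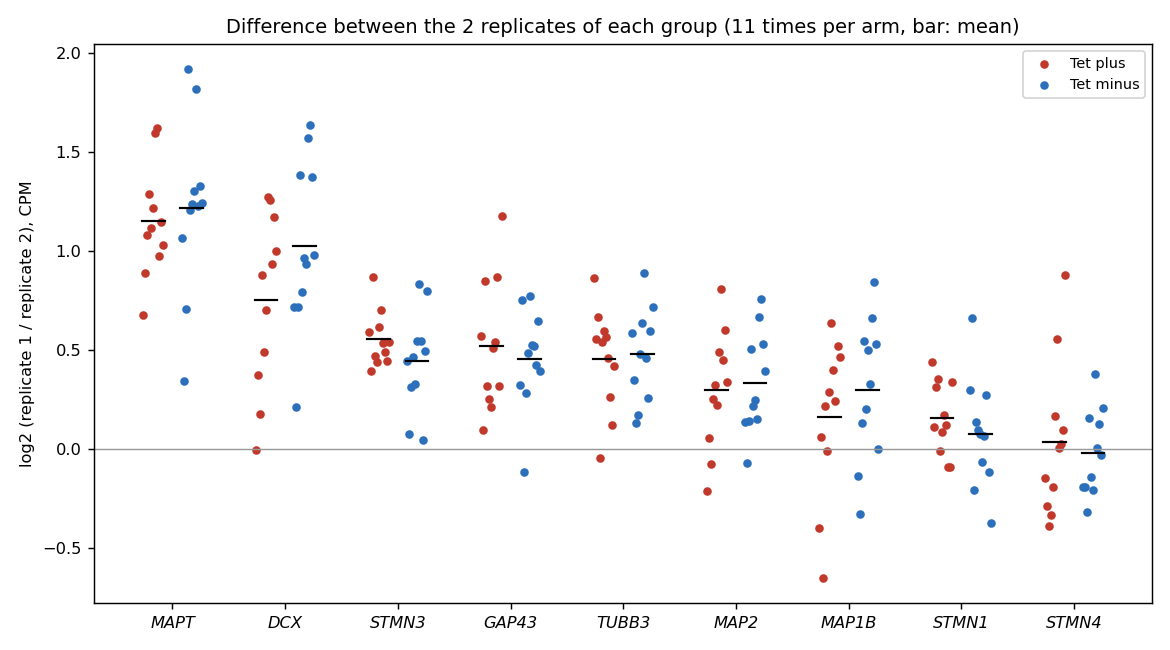
Log2 ratio of CPM in replicate 1 over replicate 2 (vertical axis) for the 9 measured genes, 11 groups of Tet plus (red, left of each pair) and 11 of Tet minus (blue, right), with the mean as a bar. MAPT and STMN3 lie above 0 in all 22 groups and STMN4 in 11 of 22.

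Over the 14 group means of log2 CPM at 0 to 14 h, MAP1B and DCX varied most alike among these genes (Pearson r = 0.95, and 0.83 after the mean of each arm was removed). MAP1B and MAP2 had r = 0.90 (0.69 after removal), and STMN3 and TUBB3 had r = 0.71 (0.72 after removal). STMN4 and DCX, the 2 with the widest arm difference, had r = 0.80, and -0.24 after removal. The genes most like each one among the 10090 whose log2 CPM averaged 3 or more were TSC22D1 (r = 0.98) and SLC6A20 (0.97) for STMN4, C20orf194 (0.97) and RICTOR (0.97) for DCX, RICTOR (0.97) and PCLO (0.96) for MAP1B, and ARFGEF1 (0.97) and CACNA2D1 (0.95) for MAP2. RAB6B (0.98) and AP3B2 (0.97) were most like MAPT, EYS (0.96) and CDKAL1 (0.96) most like STMN1, and CERKL (0.93) and TP53BP1 (0.93) most like GAP43. ACOT8 (0.95) and LPPR3 (0.94) were most like TUBB3. STMN3 reached lower values, 0.86 with TMEM54 and 0.85 with LOC642361. These are descriptions over means that share libraries and lanes, picked as the highest of many.

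Other genes of the microtubule cytoskeleton were counted by list at 0 to 14 h, against the same 20.1% of all genes higher and 21.3% lower. Of 14 measured tubulin subunits 2 were higher, TUBA1A, the main alpha tubulin of developing neurons (log2 fold change 0.61, SE 0.0602, adjusted p = 7.32e-09), and TUBB2B (0.43, SE 0.152, adjusted p = 0.0265). TUBA1A had a mean of 1715 ± 225 CPM in Tet plus libraries, against 1117 ± 93.0 CPM in Tet minus (SD, n = 14 each). TUBA1B had -0.19 (adjusted p = 0.0592), and the median of the list was 0.02. With the replicate block 3 tubulins were higher and 5 lower, against 26.5% of all genes higher and 25.6% lower.

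Of 21 other microtubule-associated proteins 4 were higher and 5 lower. DCLK2, a doublecortin-like kinase, was higher (log2 fold change 0.73, SE 0.153, adjusted p = 0.000378), its relative DCLK3 was lower (-1.06, SE 0.207, adjusted p = 0.00018), and MAP7D3 was lower (-0.25, adjusted p = 0.000877). Of 27 genes for microtubule ends and severing 8 were higher and 1 lower, among them CLIP3 (1.08, SE 0.203, adjusted p = 0.000106), the severing enzyme KATNAL1 (0.48, adjusted p = 4.32e-07) and the dynein regulator PAFAH1B1 (0.19, adjusted p = 0.000315). CLIP3 had a mean of 5.23 ± 1.53 CPM in Tet plus libraries, against 2.48 ± 0.908 CPM in Tet minus.

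Of 25 genes for tubulin folding and modification 10 were higher and 5 lower. TTLL12, of the tubulin tyrosine ligase-like family, was lower by edgeR's test (-0.74 on the log2 scale, SE 0.0648, adjusted p = 8.68e-10), and the tubulin deacetylase HDAC6 (0.38, adjusted p = 4.87e-06) and CCDC23 (0.35, adjusted p = 9.94e-06) were higher. Of 17 kinases that phosphorylate tau or stathmins, or their activators, 6 were higher, among them the tau kinase TTBK2 (0.47, SE 0.0550, adjusted p = 1.55e-07) and the JNK kinases MAPK8 (0.31, adjusted p = 1.78e-05) and MAPK10 (0.30, adjusted p = 0.000815). Of 17 collapsin response mediators and growth cone genes 6 were higher and 2 lower, with MARCKS (0.23, adjusted p = 1.95e-05) and TMOD2 (0.36, adjusted p = 0.00142) higher and ENAH (-0.23, adjusted p = 4.51e-05) lower.

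Of the 7 intermediate filament genes of neurons and their precursors, among them VIM of the mesenchymal markers, 1 was higher and 3 lower. Peripherin (PRPH) was higher (log2 fold change 0.53, SE 0.104, adjusted p = 0.000187), while the neurofilament genes NEFM (-0.65, SE 0.171, adjusted p = 0.00324) and NEFL (-0.22, adjusted p = 0.000243) were lower. PRPH had a mean of 143 ± 27.3 CPM in Tet plus libraries, against 99.3 ± 16.6 CPM in Tet minus, and NEFM one of 54.1 ± 16.3 CPM in Tet plus, against 84.4 ± 22.6 CPM in Tet minus. At 16 to 22 h TUBA1A (0.85), CLIP3 (1.39) and PRPH (0.56) were again higher, and NEFM (-0.93), DCLK3 (-1.01) and TTLL12 (-0.89) again lower, in libraries of different runs. Of all genes tested, 26.3% were higher and 26.8% lower at these times. By list, 2 tubulin subunits were higher and 4 lower at 16 to 22 h, and 7 genes for microtubule ends and severing were higher and 7 lower. Other microtubule-associated proteins had 5 higher and 5 lower, and growth cone genes 5 and 5. Tubulin folding and modification had 9 higher and 4 lower, intermediate filaments 1 and 3, and the kinases 9 and 1. HDAC6, higher at 0 to 14 h, did not pass edgeR's test at 16 to 22 h (0.09, adjusted p = 0.336). With the replicate block at 0 to 14 h, 26.5% of all genes tested were higher and 25.6% lower. Of the 21 other microtubule-associated proteins 6 were then higher and 5 lower, near these shares. Of the 27 genes for microtubule ends and severing 9 were higher and 1 lower. Of the 25 genes for tubulin folding and modification 11 were higher and 6 lower. Of the kinases 11 of 17 were then higher and 1 lower, of the growth cone genes 7 were higher and 4 lower, and of the intermediate filament genes 1 was higher and 4 lower.

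**Figure D5:**
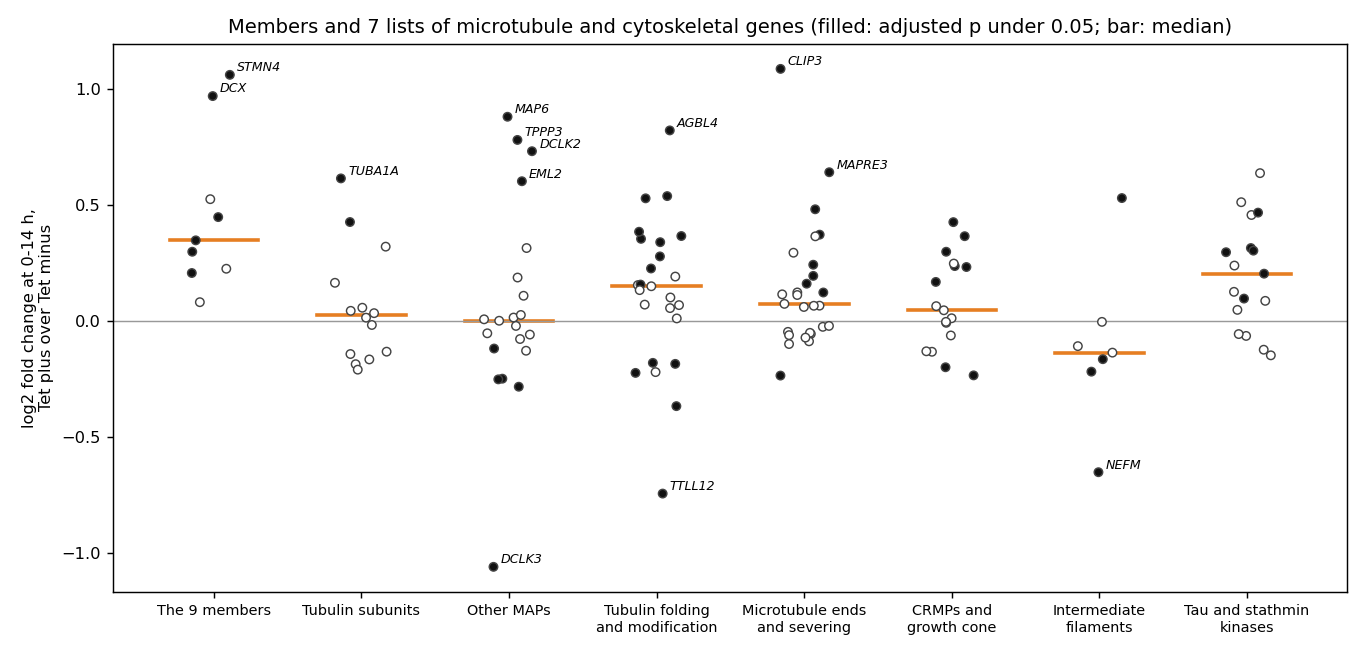
Log2 fold change of Tet plus over Tet minus at 0 to 14 h (vertical axis) for the 9 measured genes and for each measured gene of 7 lists, filled where the adjusted p is under 0.05, with the median of each list as a bar. The 9 genes have a median of 0.35, and the other lists spread to both sides of 0, from DCLK3 at -1.06 to CLIP3 at 1.08.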

How the data were processed

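The deposited table holds raw read counts per gene for 44 libraries, whole numbers with no normalisation by the authors. Per the submitters' processing notes the tools were TopHat2 2.0.5 and HTSeq, with hg19. Strand setting and annotation were not given in the sources used here, so reads of overlapping genes may be shared. Per the labels' protocols, ERCC mix 1 was added to the RNA of each sample (1:10 dilution), ribosomal RNA was depleted and libraries were directional. The 92 ERCC rows were kept out of gene library sizes. Counts were tested in R 4.3.3 with edgeR 4.0.16 (TMM, filterByExpr by group, glmQLFit, glmQLFTest) in 1 model of 22 group means, with 22 residual degrees of freedom and Benjamini-Hochberg adjustment over 14534 genes at 0.05. SE is the log2 fold change over the root of F, and CPM uses TMM library sizes (prior count 2 on the log2 scale). Of the tests, only the 0 to 14 h average was run on simulated counts. These held no change over time and no shared offset by replicate number. Same-numbered libraries of both arms deviated from their group means together at all 11 times (lowest r 0.263, median 0.634, 10090 genes), so the numbers were taken to pair the arms. Alternatives were DESeq2 1.42.0 (size factors or test), no filter, the block, ERCC scaling, the 28 libraries of 0 to 14 h alone and leaving out each library. The members, lists and tests were chosen with earlier results of these data known. Named genes were the 10 members, MYCN, up to 3 genes of each list by adjusted p at 0 to 14 h and the 2 genes most like each member. The 3-count floor covers counting error only.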

Additional observations from a re-analysis of the deposited data

Results flagged for a closer look

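STMN1 was singled out because both Tet plus libraries lay above both Tet minus libraries at 16 h (log2 fold change 0.47) and at 20 h (0.19), and below both at 22 h (-0.41). The share of all genes whose libraries were apart in both directions at these times was not counted, so how unusual the pattern is was not tested. The difference between 16 and 22 h, or 20 and 22 h, was not tested pair by pair. Over 16, 18, 20 and 22 h together, the test of a change in the arm difference gave STMN1 an adjusted p of 0.0299 with the replicate block (0.165 without it), and TUBB3 one of 0.00902 with the block (0.574 without it). Arm and sequencing run cannot be told apart at these times.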

How the results depend on the processing

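Without the replicate block, the 9 genes passed 6 times in the 0 to 14 h average and 4 times in the 16 to 22 h average. At single times they passed 6 times from 0 to 14 h and 5 times from 16 to 22 h. They passed once in the Tet minus course and once in the Tet minus changes within lanes, and 0 times in both tests of arm by time, the Tet plus course and the Tet plus changes within lanes. Fits with the replicate block passed 8 and 7 times for the averages, 17 and 17 at single times, 2 for arm by time at 16 to 22 h, 2 and 1 for the Tet minus and Tet plus courses, and 2 and 2 for the changes within lanes in Tet minus and Tet plus. No direction of a called value turned with the block. With ERCC scaling they were 0 and 9 for the averages, 0 and 36 at single times, and 0 in the Tet minus course and lane changes. The DESeq2 test called 1 gene in the Tet plus course, and either the DESeq2 test or its size factors called 1 in the Tet plus lane changes. Averages over 0 to 6 h and 8 to 12 h gave 2 and 1 calls. Leaving out each library in turn gave 4 to 6 and 2 to 4 calls in the averages, 5 to 7 and 5 to 7 at single times, and 0 to 1 in each course and each set of lane changes. The low of 2 calls at 16 to 22 h occurred without replicate 1 of Tet plus at 16, 18 or 22 h, or replicate 2 of Tet minus at 16, 18 or 20 h.

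ERCC scaling reversed 4 values: STMN3 (4.39) and MYCN (4.12) at 16 to 22 h, STMN1 at 22 h (4.10) and STMN4 at 6 against 0 h in Tet plus (0.23). Under it the median over all genes became 4.40 in place of 0.02 at 16 to 22 h, where 14510 genes were called, and 0.13 in place of 0.01 at 0 to 14 h, where 48 were called against 6019; its cause was not tested. STMN1 at 16 to 22 h ran from -0.000103 (without replicate 1 of Tet plus at 22 h) to 0.0945 on leaving out single libraries, and STMN3 from -0.14 to 0.06, above 0 without 6 of 16 (0.00980, 0.00455, 0.00991, 0.0230, 0.0156 and 0.0619). With no filter on low counts STMN4 at 3 h had an adjusted p of 0.0522. Each group had 2 libraries, STMN4 rested on 48 to 318 counts per library and STMN2 on at most 3, and p-values over averages take libraries of different times as independent.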
